A study of Mus musculus with 54 samples.

Results

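The genes described here encode the proteins of the cytosolic ribosome. They were chosen by name, as the rows named Rpl or Rps with a number, Rplp0, Rplp1, Rplp2 and Rpsa, without pseudogenes and without S6 kinases, that had a count in at least 10% of the annotated cells. Of 23154 genes in the count table, 85 matched the names and 79 passed, 46 of the large subunit and 33 of the small subunit. Just outside was Rpl34, with a count in 8.39% of cells, and just inside was Rps27, with a count in 11.0% of cells and 783 counts in all. The other 5 left out were Rpl3l (5.35% of cells), Rpl30 (4.61%), Rpl39l (4.09%), Rpl10l (0.739%) and Rpl26 (no count).

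The study profiled single haematopoietic cells of C57BL/6 mice aged 8 to 10 weeks with a modified Smart-seq2 protocol that reads the 3' ends of mRNA. The annotation covered 2301 cells of 54 libraries, with 1270 steady state cells from 28 sorted populations of bone marrow and spleen and 1031 cells collected after transplantation. Annotated cells held 20013 to 1943315 counts, with a median of 203971. Libraries served as replicates. Nothing in the labels ties a library to an animal, so p-values measure the spread between libraries alone, which may be technical.

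The steady state populations were grouped as the sorting gates name them. The stem cell gates (LT_HSC, Fraction I, Fraction III, ESLAM and ESLAMSK; iHSC below) gave sums of at least 5 cells in 12 libraries. The multipotent progenitor gates (ST_HSC, LMPP, MPP1, MPP2, MPP3, MPP4, Fraction II, HPC2 and HPC3; iMPP below) gave 17. Committed progenitors (CMP, GMP and MEP) had 2 libraries, EryA and EryB cells 3, marrow granulocytes, monocytes and macrophages 3, and splenic B, NK, CD4 T and CD8 T cells 4. Transplanted cells of a single collection day came from 3 libraries on day 1, 3 on day 3, 7 on day 5 and 10 on day 7, and 120 cells of 3 libraries that pooled days entered no comparison by day. The labels used here name the collection day and organ of transplanted cells, not the donor cells, the recipients or their treatment.

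The labels and the annotation named different populations in libraries L4 and L49, and results that change without them are given both ways. The EryA and EryB gates did not hold their labelled cells alone. Their 3 libraries carried 76236 to 209060 summed CPM (a gene's counts over the total, times 1000000) of the neutrophil genes S100a8, S100a9, Ngp, Camp and Ltf, against 49586 to 91503 in the marrow myeloid libraries. All 6 globin rows of the table were at 0 in every annotated cell, so globins could not serve as a check. These cells are therefore called by their gates. No transplanted library was numbered under 47, and iHSC libraries L1, L14 and L15 stood above the other 9 for several members, so the comparisons were also run on libraries numbered 37 and above, a choice made after seeing the data. The labels do not explain the numbering.

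Ribosomal proteins are made in equal numbers for each ribosome, and their mRNAs are among the most abundant of a growing cell. Most of these mRNAs start with a C followed by a run of pyrimidines, the 5' terminal oligopyrimidine (TOP) motif, through which mTOR and Larp1 control their translation. In blood formation, loss of 1 copy of several of these genes causes Diamond-Blackfan anaemia, and stem cells are known for a low and closely held rate of protein synthesis.

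The annotated starts of members were read from RefSeq (GRCm38.p6), where 59 of the 79 had an entry. A C at the start followed by at least 4 pyrimidines was found in 13 of these 59 genes (22.0%), against 3.01% of all 27025 genes in the table. The 30-base windows below run from 15 bases before the start to 15 bases from it, with capitals for the pyrimidine run that covers the start. The first 3 are examples of a long run. The next 3 belong to members whose values stand apart in the results that follow, and none of them has a pyrimidine at the annotated start, which need not be the start these cells use.
Rpl15 (chr14:18270972-18271001, minus strand): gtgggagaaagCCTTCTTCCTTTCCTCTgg
Rpl35 (chr2:39005117-39005146, minus strand): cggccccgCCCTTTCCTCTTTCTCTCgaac
Rps10 (chr17:27635230-27635259, minus strand): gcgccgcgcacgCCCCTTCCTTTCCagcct
Rps27l (chr9:66946071-66946100, plus strand): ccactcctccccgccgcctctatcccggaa
Rpl36al (chr12:69184053-69184082, minus strand): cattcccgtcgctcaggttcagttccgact
Rps19 (chr7:24884577-24884606, plus strand): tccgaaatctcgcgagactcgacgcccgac

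The 79 members together held 20.4% of all counts in annotated cells. Per cell the share ranged from 1.39% to 50.7%, with a median of 20.7% and an interquartile range of 17.6% to 23.4%. Rpl13, a large subunit protein, had the second highest summed count of all genes (6493 CPM). Per kilobase of median coding transcript Rps29 (11042 CPM per kb), Rpl41 (10578), Rplp1 (8693) and Rpl13 (8325) were among the 5 highest members, and the lowest with a known length were Rps27 (3.23), Rpl7l1 (119) and Rpl22 (491). Since the protocol reads 3' ends, length scaling puts long transcripts such as Rpl22 low. The levels of some members also depend on how reads shared with copies were treated: in Rps27, 58.5% of the 50-base words of its last 300 bases also occur in another gene, most of them in Rps27rt, whose row was at 0. The same share was 100% for Rpl36a, 83.3% for Rpl13, 51.98% for Rps7, 40.5% for Rps19 and 13.3% for Rps27l.

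Large and small subunit genes went together over cells. The share held by the small subunit within all member counts had a median between 41.0% and 42.9% in every group of cells. Spearman's rho between the large and the small subunit share was 0.955 over 2301 cells, which share libraries and, in both shares, the same total. The summed share showed almost no relation with depth (rho 0.059 with counts and 0.015 with genes per cell).

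By sorted population, the share of summed counts was highest in splenic T cells and lowest in granulocytes, megakaryocytes and the EryA and EryB gates. These shares are a description, with no test. CD8 T cells held 34.8%, CD4 T cells 32.4% and B cells 26.4%. The stem cell gates ESLAMSK (25.6%) and ESLAM (25.5%) stood beside CMP and MEP (both 25.3%). LMPP held 23.7%, and MPP1, MPP2, MPP3 and MPP4 held 21.3%, 21.6%, 19.4% and 20.8%. At the low end were monocytes (15.1%), NK cells (13.0%), macrophages (11.9%), EryA (8.87%), EryB (7.82%), granulocytes (7.46%) and MK (6.96%).

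Over libraries, iHSC held 22.8% ± 3.60 (SD, n = 12, 16.7% to 29.5%) and iMPP 21.4% ± 2.33 (n = 17, 17.6% to 27.1%), and the ranges overlapped widely. In 3 libraries with both, iHSC was above iMPP (L49 21.0% and 19.8%, L50 22.8% and 20.04%, L51 22.1% and 19.99%), in L14 it was below (23.3% and 25.2%), and in L74 both held 22.6%. Committed progenitors held 25.3% in L15 and 24.3% in L17. The EryA and EryB libraries held 8.58% (L4), 9.20% (L16) and 7.79% (L42), while iMPP cells of the same 3 libraries held 27.1%, 23.9% and 22.3%, so the difference was present within each library. Marrow myeloid libraries held 13.6% (L5), 11.9% (L12) and 10.6% (L43).

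**Figure D1:**
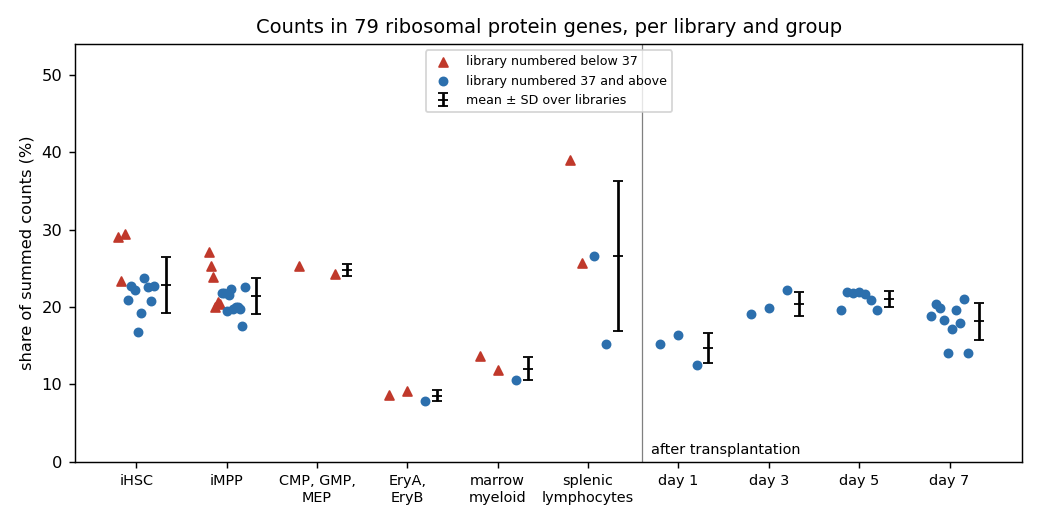
Share of summed counts (percent, y axis) in the 79 ribosomal protein genes, with 1 point per library and group. Triangles are libraries numbered below 37, circles libraries numbered 37 and above, and bars the mean ± SD over libraries. EryA and EryB libraries lie between 7.79% and 9.20%, and the lymphocyte libraries spread from 15.3% to 39.02%.

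Splenic lymphocyte libraries spread the most, at 39.02% (L2), 26.6% (L53), 25.7% (L3) and 15.3% (L54). Both the cell type and the library went with the value. L2 and L53 held T cells, with 37.7% and 26.03% for CD4 T cells and 40.2% and 27.1% for CD8 T cells. L3 and L54 held B cells at 34.3% and 19.5% and NK cells at 15.5% and 11.2%. The lower numbered library was higher for each of the 4 types. Within stem and progenitor cells, iHSC libraries numbered under 37 held 27.3% ± 3.43 (n = 3) and the others 21.3% ± 2.20 (n = 9), and iMPP libraries 22.9% ± 2.97 (n = 6) and 20.6% ± 1.52 (n = 11). The lower numbered libraries were not all high: L14 (23.3%) lay inside the range of the other iHSC libraries, up to 23.8%, and iMPP libraries L23, L26 and L28 held 19.98% to 20.6%. The iMPP libraries that were high, L4, L14 and L16, held ST_HSC or LMPP cells, so population and number cannot be told apart there.

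Among transplanted libraries of a single collection day the share was lowest on day 1, at 15.2% (L83), 16.3% (L84) and 12.6% (L87). It was 19.1% (L79), 19.9% (L85) and 22.1% (L89) on day 3, 21.1% ± 1.05 (n = 7, 19.6% to 21.9%) on day 5 and 18.1% ± 2.43 (n = 10, 14.1% to 21.1%) on day 7. All 3 day 1 libraries lay below every iHSC library. The 3 libraries that pooled days were as low, at 15.3% ± 1.91 (13.1% to 16.7%), and 1 of them, L77, was labelled day 5 and day 7. L87 was labelled bone marrow alone and the other day 1 libraries bone marrow and spleen, so for L87 organ and library cannot be told apart. In L49 and L55, which held both, day 7 cells had 20.4% and 19.9% and iHSC cells 21.0% and 19.3%. Neutrophil genes moved with the low values: they summed to 136771 CPM in L87 and to 2287 and 6092 CPM in the other day 1 libraries. On day 7 they reached 35401 CPM, and in iHSC they ran from 1.08 to 26529 CPM.

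The authors' predicted types, which were made from expression and may rest in part on these genes, set most of the low cells apart. Of 255 cells with a share under 10%, 221 (86.7%) were typed tGM1, tME1 or tME2. The median cell held 4.35% in steady state tGM1 and 4.56% in transplanted tGM1, and 3.75% and 4.13% in tME1. In the EryA and EryB gates, tME1 cells had 27.5% of their counts in the 5 neutrophil genes, so the type is not named further here. tME2 cells of these gates had 3.93% of their counts in neutrophil genes and a median ribosomal protein share of 6.02%. Of the 118 transplanted tGM1 and tME1 cells, 76 were collected on day 7. In L87, 5 of 13 cells were of these 2 types, and without them it held 20.5%, against 15.8% in L83 and 16.4% in L84. Without tGM1 and tME1 cells, day 1 held 17.5% ± 2.54 and day 7 19.7% ± 1.60. Day 3, day 5 and day 7 moved by less than the spread between libraries, and day 1 by more. EryA and EryB then held 13.6% ± 4.97 and marrow myeloid libraries 15.2% ± 1.96.

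**Figure D2:**
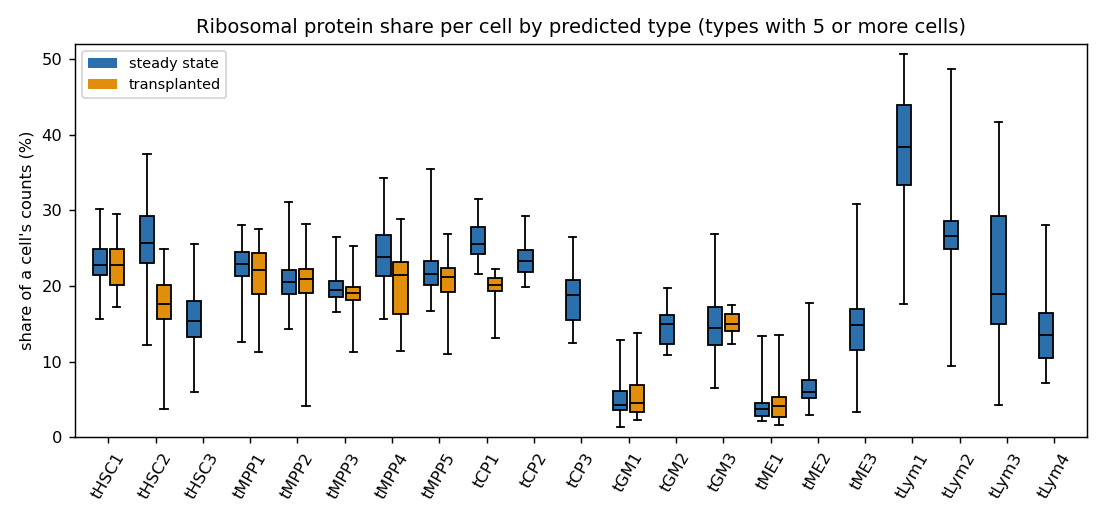
Share of a cell's counts in ribosomal protein genes (percent, y axis) by the authors' predicted type (x axis), for types with at least 5 cells in steady state (blue) or after transplantation (orange). Boxes give the quartiles with the median, and whiskers run to the lowest and highest cell. The tGM1 and tME1 medians lie between 3.75% and 4.56% in both origins.

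The share was also taken within single predicted progenitor types. For tMPP2, steady state sums held 20.3% ± 1.155 (n = 8), day 3 20.6% ± 0.864 (n = 3), day 5 20.9% ± 0.867 (n = 6) and day 7 19.9% ± 2.9995 (n = 5), and the single day 1 sum held 16.1%. For tMPP1 the values were 21.9% ± 1.53 (n = 5) in steady state, 21.0% ± 2.37 (n = 3) on day 3, 22.9% ± 1.30 (n = 6) on day 5, and 24.1% and 16.7% in the single sums of day 7 and day 1. The day 1 sums have no replicate, and day 7 library L78 was lower still for tMPP2 (14.8%). Of the libraries that pooled days, L77 (day 5 and day 7) held 14.7% for tMPP2 and 13.4% for tMPP5. L80 and L88 (both day 1 and day 3) held 14.7% and 19.3% for tMPP2, and 16.3% and 22.6% for tMPP1. For tMPP5 the values were 21.5% ± 2.83 (n = 5) in steady state, 17.2% in the single sum of day 3, and in the later sums 21.4% ± 1.154 (day 5, n = 6) and 20.9% ± 0.274 (day 7, n = 4). For tMPP3 they were 19.8% ± 0.717 (n = 4) in steady state and 18.8% ± 0.312 (n = 4) on day 7, and pooled tMPP4 cells held 23.6% in steady state and 19.5% after transplantation. So the origins were close in some types, and pooled over days they were apart in others. tHSC2 cells held 27.8% in steady state and 17.5% after transplantation, over 93 and 15 cells, and tHSC1 cells 23.3% and 22.0%, over 189 and 16 cells. These tHSC values pool days and libraries without a spread, and no transplanted library was numbered under 47. On day 5, spleen libraries held 21.3% ± 1.16 (n = 4), the marrow library 20.9% and the 2 libraries of both organs 21.6% and 19.7%.

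Gene by gene tests used edgeR's quasi-likelihood test on library sums, with Benjamini-Hochberg adjustment over all genes and an adjusted p under 0.05 called. Levels are TMM-scaled CPM, scaled within each fit, and changes are log2 with the standard error (SE). All comparisons with iHSC share its 12 libraries and are not independent of each other. Shares of all genes called are given for the main edgeR fits only, so counts under alternatives lack that background.

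On day 1, 44 of 79 members fell against iHSC (55.7%) and none rose, while 3.14% of all genes tested were called in either direction. The fall took in 28 of 46 large and 16 of 33 small subunit genes. All 79 had a negative change, with a median of −0.75 against −0.26 over all genes. The 3 day 1 libraries lay below all 12 iHSC libraries for 40 of the 79 members, 37 of them called. This count was not taken over all genes. Rps14, the small subunit gene lost in the 5q deletion of human myelodysplasia, had 1722, 2015 and 2042 CPM on day 1, and 3130, 4426 and 11528 CPM as lowest, median and highest of iHSC. The groups did not overlap, and the change was −1.45 (SE 0.25, edgeR adjusted p = 0.00041). Rps7, which is also known to bind Mdm2, fell by 1.31 (SE 0.21, edgeR adjusted p = 0.000204), with 1811 to 2604 CPM against 3679 to 8472. The next largest falls were those of Rpl17 (−1.26), Rps19 (−1.26), Rps18 (−1.23) and Rpl13 (−1.19). Of the ribosomal stalk proteins, which recruit elongation factors, Rplp0 (−1.06) and Rplp1 (−0.82) fell, and Rplp2 had −0.43 with an edgeR adjusted p of 0.327. The Rplp0 call was lost without L83 (edgeR adjusted p = 0.0654) and with the voom block (0.339). The Rplp1 call was lost without L84 (edgeR adjusted p = 0.0562) or L87 (0.192), in tHSC and tMPP cells alone (0.138) and with the voom block (0.292). Rpl5 (−0.66) and Rpl11 (−0.86), which carry the 5S RNA and hold Mdm2 when ribosome assembly fails, fell too. The Rpl5 call was lost without any 1 of the 3 day 1 libraries (largest edgeR adjusted p 0.345, without L87), with RLE size factors (0.0575), with the voom block (0.257), in libraries numbered 37 and above (0.0565) and in tHSC and tMPP cells alone (0.445), and the Rpl11 call without L83 (0.127), with the voom block (0.232) and with at least 10 cells per sum (0.0674). The change of Rpsa, also known as the laminin receptor, was −0.41 (edgeR adjusted p = 0.245).

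The size of the day 1 difference depended on which libraries entered. Leaving out 1 of the 3 day 1 libraries left 19 (L83), 36 (L84) or 24 (L87) calls, tHSC and tMPP cells alone gave 25, and libraries numbered 37 and above gave 36, all of them lower. With the library as a random block in limma voom, 1 member was called. The 5 stem cell markers summed to 0 to 423 CPM on day 1 and 332 to 1026 CPM in iHSC. Neutrophil genes and the lowest depth of the day 1 libraries went together in L87 (32213 median counts per cell), and the part of markers and depth was not tested. The 13 members with a C and 4 or more pyrimidines at the annotated start had 7 calls and a median of −0.87, and the 46 others with a known start 23 calls and a median of −0.69.

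Genes of the same pathway were counted from lists, beside the 3.14% of all genes called on day 1. Fau, which encodes a further small subunit protein fused to a ubiquitin-like sequence, fell on day 1 (−0.78). Of 18 translation factors and other TOP mRNAs, 4 fell on day 1 (Eef1a1 −0.98, Eif4b −1.30, Gnb2l1 −0.75 and Naca −0.76) and none rose. Of 18 Diamond-Blackfan anaemia genes tested, all of them members, 9 fell (50%), a share near the 55.7% of all members. With edgeR, none of 25 ribosome biogenesis genes was called on day 1 (median 0.17; 3 at an unadjusted p under 0.05), none of 17 genes that control ribosomal protein synthesis (0.05; 3) and none of 77 mitochondrial ribosomal protein genes (−0.15; 6). At the low share of all genes called, the absence of calls does not set these lists apart from other genes.

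The pattern across days is shown best by single members. On day 3, 2 of 79 fell, Rps19 and Rps7, with 1.12% of all genes called, and both calls were lost when any day 3 library was left out. Day 5 had 14 lower and 1 higher, Rpl27, with 7.57% of all genes called. Day 7 had 26 lower and 1 higher, Rps27l, with 20.8% of all genes called. The median of the members was −0.30 on day 3, −0.16 on day 5 and −0.23 on day 7, against −0.17, −0.12 and −0.10 over all genes. With RLE size factors the count of lower members was 24 on day 5 and 51 on day 7, with none higher, while the median of all genes dropped by 0.13 and dropped by 0.21. With the library block, limma voom called 8 higher and 18 lower on day 5. For these RLE and voom counts the share of all genes called is not given here.

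Rps19, the gene most often mutated in Diamond-Blackfan anaemia, had 2909, 4528 and 9287 CPM as lowest, median and highest of iHSC. It had 1991 (L87), 2176 (L84) and 2513 (L83) CPM on day 1 and 2516 (L85), 2870 (L89) and 3035 (L79) on day 3. Its lowest, median and highest were 2638, 3301 and 3490 CPM on day 5 and 2440, 2885 and 3704 CPM on day 7. Day 1 lay wholly below iHSC, and the later days overlapped with the lowest iHSC library, L76. The changes were −1.26 (SE 0.23), −0.93 (0.23), −0.72 (0.16) and −0.84 (0.14), with edgeR adjusted p of 0.000958, 0.0288, 0.00322 and 4.59e-05. Its 3 highest iHSC libraries were L1, L14 and L15 (7472 to 9287 CPM). In libraries numbered 37 and above the changes were smaller, −0.98, −0.65, −0.44 and −0.56, and still called.

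Rpl13 had 5622, 8702 and 15495 CPM in iHSC as lowest, median and highest, 3727, 3987 and 4420 CPM on day 1 and 4741, 5607 and 6258 CPM on day 7. Day 1 did not overlap with iHSC, and day 7 did. The day 7 change was −0.73 (SE 0.13, edgeR adjusted p = 6.93e-05), and −0.50 in libraries numbered 37 and above. Of the 15 members called on day 5, 8 were lower in all 10 alternatives, among them Rpl13, Rps14, Rps19, Rps3a1, Rps4x, Rps7 and Rps9. On day 7, 16 members were called lower in all 10 alternatives: these 8 with Rpl9, Rpl17, Rpl32, Rpl37, Rpl37a, Rplp1, Rps3 and Rps6.

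**Figure D3:**
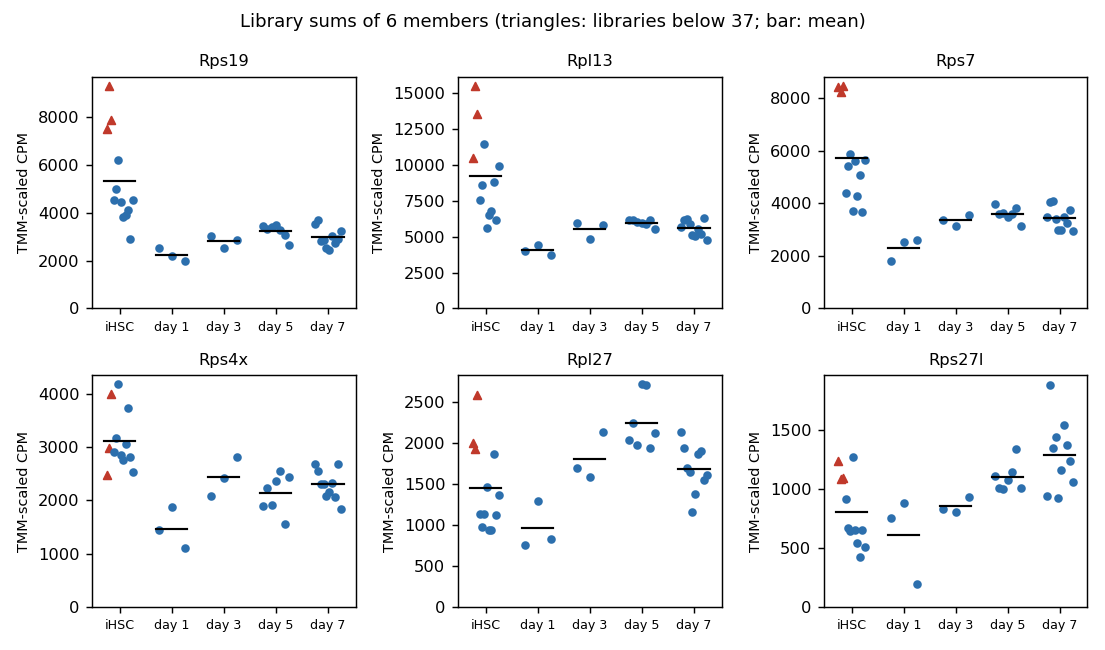
TMM-scaled CPM (y axis) of 6 members in each library of iHSC and of days 1, 3, 5 and 7, with the mean as a bar. Triangles are libraries numbered below 37. The means of Rps19, Rpl13, Rps7 and Rps4x are lowest on day 1, and the 3 triangles of iHSC stand above the other iHSC libraries for Rps19 and Rps7.

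A smaller set went the other way from day 5 on, and its size depended on the iHSC libraries used. Rpl27 had 937, 1252 and 2595 CPM in iHSC, 752 to 1299 CPM on day 1 and 1940, 2121 and 2729 CPM on day 5 (0.63, SE 0.18, edgeR adjusted p = 0.0207). The call was lost with RLE size factors (0.51, edgeR adjusted p = 0.0518). Rps27l, the paralog of Rps27 that p53 is known to induce, had 425, 665 and 1278 CPM in iHSC and 929, 1296 and 1883 CPM on day 7 (0.68, SE 0.20, edgeR adjusted p = 0.0113). That call too was lost with RLE size factors (0.47, edgeR adjusted p = 0.0639), and without libraries holding 2 groups (0.58, edgeR adjusted p = 0.0668). In libraries numbered 37 and above, day 7 had 12 members higher and 16 lower, against 1 and 26 with all libraries. The 12 included Rpl7a, Rpl27, Rpl28, Rpl29, Rpl35a, Rpl36al, Rpl41, Rps2, Rps25 and Rps27l, and their changes ran from 0.24 to 0.89. Of these, Rpl41 had the opposite sign with all libraries (0.24 against −0.05, the latter not called). Day 5 in these libraries had 7 higher and 9 lower, and the share of all genes called in them is not given here.

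In the same day 7 comparison, where 20.8% of all genes were called, 1394 higher and 1390 lower, 12 of 25 ribosome biogenesis genes rose and none fell, with a list median of 0.92. They included Nolc1 (2.19) and Ncl (1.25), proteins of the nucleolus, Fbl (1.26), the RNA methylase of the box C/D particles, and Bysl (1.80), needed for the small subunit. Of 77 mitochondrial ribosomal protein genes 25 rose and none fell (median 0.64). In the list of translation factors and other TOP mRNAs, 6 of 18 rose, among them the nucleolar protein Npm1 (1.14) and the histone chaperone Nap1l1 (1.23), and 2 fell, the elongation factor Eef1a1 (−0.49) and Tpt1 (−0.42). Of the 17 control genes 3 were called (17.6%), a share below that of all genes.

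No member was called between day 7 and day 5 with edgeR, where 0.404% of all genes were, and 2 were lower at an unadjusted p under 0.05. DESeq2 called none either, and limma voom with the library block called 3, Rpl27, Rpl36a and Rps24, all lower on day 7. The member median was −0.07. Against iMPP, day 7 had 7 members lower and none higher, with 3.86% of all genes called, among them Rps19 (−0.69), Rps14 (−0.66), Rpl37a (−0.52), Rpl32 (−0.44), Rps7 (−0.42) and Rpl13 (−0.40). Rps19 had 2250, 2811 and 3604 CPM on day 7 and 3453, 3980 and 7908 CPM in iMPP, with a small overlap (SE 0.13, edgeR adjusted p = 0.00212). Rps19 and Rps14 were called in all 9 alternatives. Without L4 and L49 the count was 4, with the Rpl32 and Rps7 calls lost (edgeR adjusted p = 0.0583 and 0.0596).

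Rps19 was also the only member called within tMPP2, of 78 tested (1.28%), where 0.707% of all genes were called. A single call does not set the members apart from other genes. It had 3774, 4176 and 4384 CPM as lowest, median and highest of the 8 steady state sums and 1992, 3121 and 4206 CPM in the 18 transplanted sums. The transplanted sum of L47 was the single one above the lowest steady state sum. The change was −0.43 (SE 0.10, edgeR adjusted p = 0.0294), and with at least 10 cells per sum −0.40 (edgeR adjusted p = 0.0517). The type was predicted from expression, so this comparison is not independent of it. Rps19 shares sequence with copies, as given above, and their part was not tested.

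**Figure D4:**
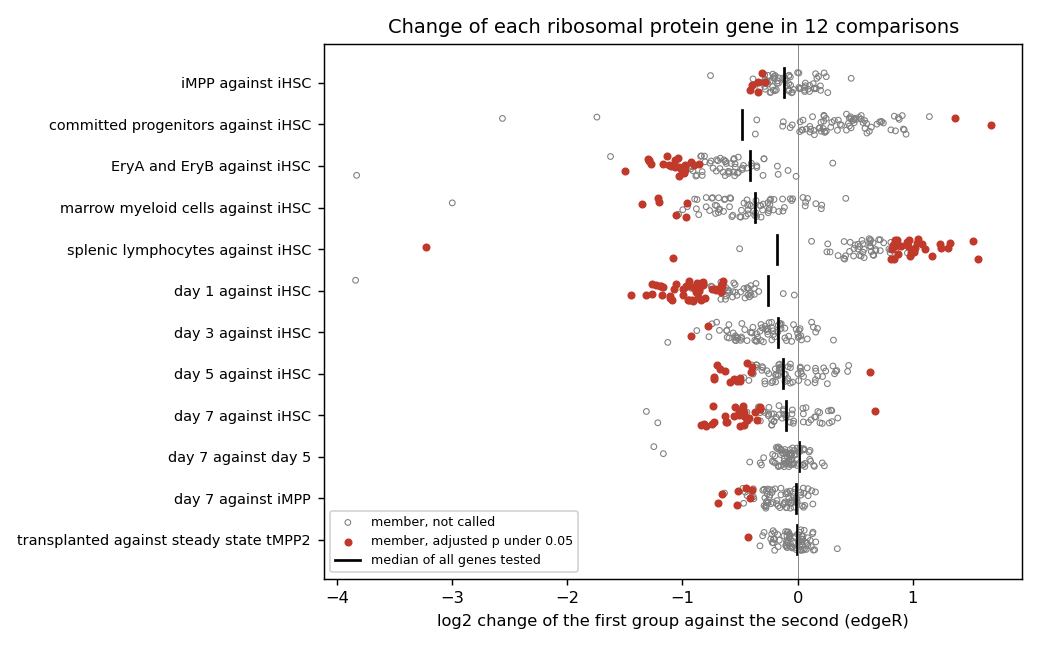
Change of each member (log2, x axis) in the 12 comparisons, with called members in red, others as open circles, and the median of all genes tested as a black bar. Members lie left of 0 on day 1 in every case, and right of 0 for 76 of 79 in splenic lymphocytes.

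At steady state, iMPP had 6 members lower than iHSC and none higher, of 78 tested. That was 7.69% of the members, below the 9.77% of all genes called. The member median and the median over all genes were both −0.12. The 6 were Rplp1 (−0.42), Rpl9 (−0.40), Rpl7 (−0.35), Rps3a1 (−0.34), Rpl5 (−0.31) and Rps4x (−0.28). Rplp1 had 3136, 4060 and 6798 CPM in iMPP and 3677, 5384 and 10428 CPM in iHSC, and the groups overlapped (edgeR adjusted p = 0.0334). None of the 6 was called under every alternative, and RLE size factors gave 18, all lower. In libraries numbered 37 and above 1 remained, Rps3a1 (−0.30), and without libraries holding 2 groups there was none. Without L4 and L49 the calls of Rpl7, Rpl5 and Rps4x were lost (edgeR adjusted p = 0.0584, 0.0719 and 0.0508). Of 77 mitochondrial ribosomal protein genes 14 rose in iMPP, and of 25 ribosome biogenesis genes 3.

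Committed progenitors had 2 members higher than iHSC and none lower. That was 2.53% of the members, near the 2.58% of all genes called. Rps27l had 1776 (L17) and 2444 (L15) CPM against 352, 561 and 1051 CPM in iHSC, with no overlap (1.68, SE 0.36, edgeR adjusted p = 0.00842). Rpl36al, the paralog of Rpl36a, had 1930 (L17) and 2484 (L15) CPM against 511, 808 and 1451 CPM (1.37, SE 0.34, edgeR adjusted p = 0.0235). Both calls were lost with either library left out, where the largest edgeR adjusted p was 0.402 and 0.594, and the Rpl36al call with RLE size factors (0.0921). With the library block, limma voom called 32 members higher and 1 lower, and the share of all genes it called is not given here.

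In the EryA and EryB gates, 21 of 79 members fell and none rose, with 11.8% of all genes called. Rpl5 had 534 (L4), 721 (L42) and 1212 (L16) CPM against 1928, 2177 and 3261 CPM in iHSC (−1.50, SE 0.33, edgeR adjusted p = 0.00246). Rps4x, the X-linked small subunit gene, had 876 to 1162 CPM against 1889 to 3348 (−1.30), and Rpl3, which lies near the peptidyl transferase centre, 628 to 1069 CPM against 1576 to 2532 (−1.29). Neither gene's groups overlapped. Rpl12 (−1.27), of the stalk base, and Rplp1 (−1.17) fell as well. Rpl3, Rpl5 and Rps4x were called in all 11 alternatives. The count fell to 4 without L4 and L49, whose labels differ from the annotation, to 4 without L42 and to 9 without L16. Without L4 and L49 the Rpl12 and Rplp1 calls were lost (edgeR adjusted p = 0.100 and 0.0761). The neutrophil genes in these libraries stand in the opening, and their part was not tested.

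Marrow myeloid cells had 6 members lower and none higher. That was 7.59% of the members, below the 9.55% of all genes called. The 6 were Rpl5 (−1.35), Rpl12 (−1.21), Rpl3 (−1.20), Rps4x (−1.06), Rps3a1 (−0.97) and Rpl17 (−0.96). None of the 6 overlapped with iHSC, among 14 of 79 members without overlap, a count not taken over all genes. Rpl5 had 818 (L12), 891 (L5) and 1028 (L43) CPM (SE 0.33, edgeR adjusted p = 0.00715). Leaving out L12 ended all 6 calls, and leaving out L5 or L43 left 2. The Rpl17 call was also lost without L4 and L49 (edgeR adjusted p = 0.0592).

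Splenic lymphocytes had 27 members higher and 2 lower, with 11.5% of all genes called, and a member median of 0.70 against −0.18 over all genes. Rps24, a small subunit gene of the Diamond-Blackfan list, had 2838 (L54), 6564 (L53), 8231 (L3) and 13565 (L2) CPM against 2014, 2686 and 4214 CPM in iHSC (1.53, SE 0.24, edgeR adjusted p = 0.000105). L54 lay inside the iHSC range and the other 3 above it. Rpl13a, the large subunit protein of the interferon-gated GAIT complex, had 4270, 7469, 8427 and 14542 CPM in the same order of libraries, against 2680, 3297 and 5675 CPM (1.32, SE 0.22, edgeR adjusted p = 0.000207). Rps29 (1.57), Rps16 (1.31), Rps15a (1.25) and Rpl27 (1.24) also rose, as did Fau (1.34). Rps24 and Rpl13a were called in all 13 alternatives. The counts rested on single libraries: 2 members were called without L2, 17 without L3, 28 without L53 and 59 without L54, and 2 in libraries numbered 37 and above.

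The 2 members that fell in lymphocytes were Rps4l and Rps27l. Rps27l had 217 (L3), 232 (L2), 253 (L53) and 546 (L54) CPM against 352, 561 and 1051 CPM in iHSC (−1.08, SE 0.33, edgeR adjusted p = 0.0305). Rps4l, a paralog of Rps4x, had 0.802 (L2), 0.948 (L53), 6.65 (L54) and 17.7 (L3) CPM against 7.07, 58.3 and 165 CPM (−3.23, SE 0.97, edgeR adjusted p = 0.0281). Both calls were lost without L2 (edgeR adjusted p = 0.106 and 0.0907) and without L53 (0.109 and 0.0859), and in libraries numbered 37 and above (0.496 and 0.0753).

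The make-up of the ribosomal protein counts differed among populations most for these paralogs and the sparsely counted Rps27. For each member its percentage of all member counts was taken in the 28 populations. The median coefficient of variation over members was 0.139. It was highest for Rps27 (0.862, with few counts), Rps4l (0.700), Rps27l (0.474), Rpl7l1 (0.385) and Rpl36al (0.318). Rps27l made up 0.887% of member counts in MEP, 0.817% in CMP and 0.772% in GMP, 0.241% to 0.462% in the 5 stem cell gates, and 0.0503% in CD4 T cells, the lowest of the 28. Per library it held 0.348% ± 0.129 (n = 12) in iHSC, 0.523% ± 0.108 (n = 17) in iMPP, 0.667% ± 0.100 (n = 10) on day 7 and 0.138% ± 0.148 (n = 4) in lymphocytes. Rpl36al ran from 0.302% in CD8 T cells to 0.933% in monocytes. The paralog pair Rpl22 and Rpl22l1 held 0.387% ± 0.075 and 0.414% ± 0.125 in iHSC and 0.547% ± 0.031 and 0.383% ± 0.037 in committed progenitors. With edgeR, Rpl22 was called in lymphocytes (0.87, adjusted p = 0.0394), as was Rpl39 (1.03, adjusted p = 0.0178), a short protein of the peptide exit tunnel. Both calls were lost without L2, without L3 and in libraries numbered 37 and above (0.39 and 0.45, edgeR adjusted p = 0.509 and 0.505), and that of Rpl22 also with RLE size factors (0.0815), with DESeq2 (0.0789), with at least 10 cells per sum (0.0532) and without L4 and L49 (0.0565). With the library block, limma voom called both in committed progenitors too. Rpl22l1 (smallest edgeR adjusted p 0.164) and Rpl7l1 (0.485) were called in none of the 12. Rpl36a was lower on day 1 (−0.86) and day 7 (−0.48). The day 1 call was lost in 5 alternatives, among them without L83 or L87, and the day 7 call in libraries numbered 37 and above (−0.20, edgeR adjusted p = 0.181) and in tHSC and tMPP cells alone (edgeR adjusted p = 0.0524). Rps29 held 3.17% ± 0.695 in EryA and EryB and 3.25% ± 0.780 in lymphocytes against 1.99% ± 0.419 in iHSC.

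**Figure D5:**
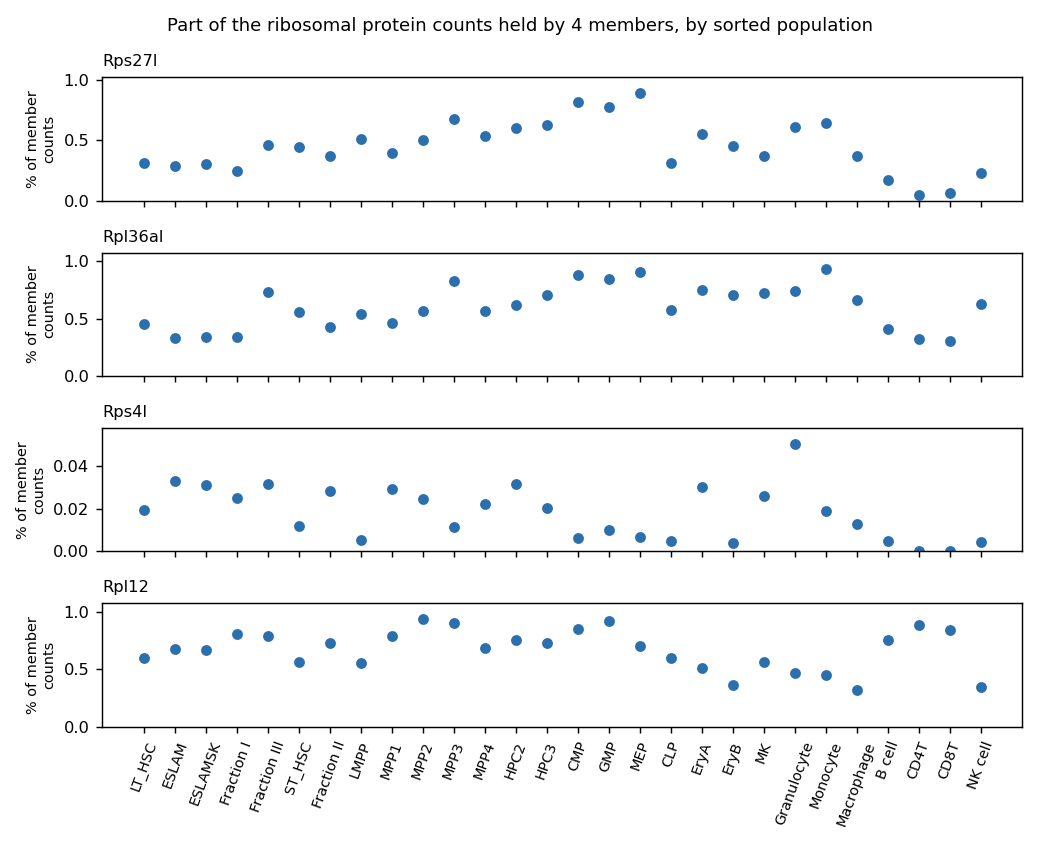
Percentage of all ribosomal protein counts (y axis) held by Rps27l, Rpl36al, Rps4l and Rpl12 in the 28 sorted populations (x axis), 1 point per population. Rps27l runs from 0.0503% in CD4 T cells to 0.887% in MEP.

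Across 70 sums of a library and group, the level of a member was compared with the summed level of the other members, as a description over sums that share libraries and scaling. The median Spearman's rho over members was 0.795, and Rpl36 (0.952) and Rps23 (0.947) were the most alike. The least alike were Rpl7l1 (0.057), Rps4l (0.097), Rps27l (0.178), Rpl36al (0.287) and Rps12 (0.482). Rpl7l1 (156 CPM) and Rps4l (45.1 CPM) have few counts, and the paralog Rpl22l1 had 0.750.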

How the data were processed

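Per the submitters' processing notes, the authors aligned reads with TopHat and counted them with HTSeq on mm10. Versions, and whether reads or molecules were counted, are not given in the sources used here. The deposited values are counts of 23154 genes in 2879 cells. The deposited annotation, which gives population, origin and predicted type, covers 2301, and the other 578 were left out. No doublet caller was run, and no 2 cells had identical counts.

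Counts were summed per library and group (at least 5 cells), filtered with filterByExpr, scaled with TMM and tested with edgeR 4.0.16 (R 4.3.3) in 5 fits of 24 to 35 sums and 10461 to 13353 genes. Calls are at an adjusted p under 0.05 over all genes of a fit. Alternatives were RLE size factors, DESeq2 1.42.0, limma 3.58.1 voom with the library as a random block, other filters and left-out libraries. The test code was tested on simulated data. Named genes are, per comparison, the called members with the largest changes and a set of members with known roles. Members, lists and tests were chosen with earlier results of these data known. Some items are not reported here.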

Additional observations from a re-analysis of the deposited data

Results flagged for a closer look

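Single libraries far from the rest of their group were looked for in 114 groups of 4 to 10 libraries, as gaps above Dixon's 95% critical value, and 14 were found; chance gives about 1 in 20 groups. Of the 14, 8 came from L66, a day 5 library with 8 cells. There Rpl12 had 2551 CPM (other libraries 1489 to 1890), Rpl13a 4033 (3135 to 3410), Rpl3 2570 (1819 to 2082), Rpl7l1 266 (98.3 to 159), Rplp1 4614 (3974 to 4249), Rplp2 2563 (1892 to 2132), Rps24 4559 (3020 to 3478) and Rps27 11.9 (0.403 to 3.64). In L72, also of day 5, Rplp0 had 3001 CPM against 3609 to 4047 in the others.

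On day 7, L78 was low for Rps15a (1152 CPM, others 1704 to 2334), Rps24 (2103, others 2613 to 3192) and Rpsa (1656, others 2925 to 3870), and L47 was high for Rps29 (4615, others 2893 to 3605). Among splenic lymphocytes, Rps27l had 546 CPM in L54 and 217 to 253 in the other 3 libraries.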

How the results depend on the processing

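For single named members, 231 results were recomputed under 2438 alternatives: 2219 kept their direction and their side of the threshold, 166 lost a call, 53 gained one and none reversed. Counts of called members moved by more than 1.5 times as follows, and the cause was not tested. The shares of all genes called in these settings are not given here, so the counts have no background. With RLE size factors they were 6 on day 3, 24 on day 5, 51 on day 7, 18 in iMPP and 1 in committed progenitors. With DESeq2 they were 7, 25, 51, 18 and 1 for these, 12 in marrow myeloid cells and 15 for day 7 against iMPP. Without a filter on low counts they were 1 on day 3, 3 in iMPP and 19 for day 7 against iMPP. With at least 10 cells per sum they were 4 on day 3, 3 in iMPP and 0 within tMPP2. Without libraries holding 2 groups they were 0 in iMPP, 0 in committed progenitors and 60 in lymphocytes. With the library as a random block in limma voom they were 1 on day 1, 5 on day 3, 26 on day 5, 3 for day 7 against day 5, 18 in iMPP, 33 in committed progenitors and 12 in EryA and EryB. TMM without members gave 1 on day 3. Without L4 and L49 they were 4 in EryA and EryB and 4 for day 7 against iMPP.

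Libraries numbered 37 and above alone gave 1 in iMPP, 2 in lymphocytes and 3 for day 7 against iMPP, and tHSC and tMPP cells alone 25 on day 1, 5 on day 3 and 3 for day 7 against iMPP. These 2 settings and the one without L4 and L49 were chosen after seeing the data. Leaving out 1 library gave 19 to 36 calls on day 1, 0 to 0 on day 3, 0 to 0 in committed progenitors, 4 to 9 in EryA and EryB, 0 to 2 in marrow myeloid cells and 2 to 59 in lymphocytes; where 1 library was left it was assumed to vary like the other groups. The voom block was not run for day 7 against iMPP and within tMPP2. No paired analysis was possible because library numbers pair no samples across groups, other than the libraries holding 2 groups. The block covers these except L49 in day 7 against iMPP. The main edgeR tests treated both sums of such a library as independent.

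The mean share of counts moved by more than 1 SD when the 50 highest other genes were left out of the denominator (iMPP 24.6%, committed progenitors 28.2%, EryA and EryB 11.4%, marrow myeloid cells 15.03%, day 1 17.3%, day 3 23.02%, day 5 23.9%, day 7 20.8%). It also moved as the median of cells (EryA and EryB 5.38%, marrow myeloid cells 10.5%, day 1 16.7%), with cells thinned to 20000 counts (EryA and EryB 7.48%), and without tGM1 and tME1 cells (day 1 17.5%, EryA and EryB 13.6%, marrow myeloid cells 15.2%). Which of group size and depth limits these comparisons more was not tested.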

Other observations

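Rows of ribosomal protein copies that the naming rule leaves out also held counts over all annotated cells: Rpl37rt 208 CPM, Rps15a-ps6 147 CPM and Rpl14-ps1 80.5 CPM, while Rps27rt held none. By predicted type, the 2 libraries of splenic T cells fell into different classes. L2 held 46 tLym1 cells and 1 tLym2 cell, while L53, with the same 2 gates, held 41 tLym2 cells. The B and NK cell libraries fell into the same classes, with 20 tLym3 and 16 tLym4 cells in L3 and 21 and 20 in L54. The share of counts in ribosomal protein genes was 38.8% in tLym1, 27.6% in tLym2, 22.8% in tLym3 and 14.1% in tLym4.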
